A study of Mus musculus with 6 samples.

Results

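The genes examined were the 5 subunits of the transcription factor NF-kB and 5 of its inhibitors of the IkB family, which were found in the deposited gene tables by their symbols. The 10 genes were Nfkb1, Nfkb2, Rela, Relb and Rel for the subunits, Nfkbia, Nfkbib and Nfkbie for the classical inhibitors, and Nfkbiz and Bcl3 for the nuclear IkB proteins. They were 10 of 18182 genes listed in the files, and all 10 passed the filter on low counts that left 13353 genes for testing. Lewis lung carcinoma (LLC) is a transplantable lung cancer line of C57BL/6 mice, and the LLC cells used carried red fluorescent protein (LLC-RFP). Wild type C57BL/6 mice received LLC-RFP under the skin, either alone (LLC alone, 3 libraries) or together with bone marrow-derived mesenchymal stem cells (LLC with BMSCs, 3 libraries). Red fluorescent cells were sorted from the primary tumours by flow cytometry, and their RNA was sequenced, so the cells of both groups had grown in a living host. The labels give neither the age of the mice nor the number of mice behind a library, so p values measure only the spread between these samples.

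NF-kB proteins bind DNA as dimers built from the 5 subunits. In resting cells the classical inhibitors hold the dimers in the cytoplasm, and receptors for tumour necrosis factor, interleukin 1 and microbial products activate kinases that mark the inhibitors for destruction and so free the dimers. Nfkb1 and Nfkb2 encode long precursors that act as inhibitors themselves until they are processed to the subunits p50 and p52, and the nuclear IkB proteins modulate dimers that are already on DNA. Several genes of the family are known as targets of NF-kB, and in tumours the pathway is best known for inflammatory cytokines, chemokines and survival genes.

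Promoter sequences are shown for the inhibitors with the largest rises, Nfkbie and Bcl3, for the most abundant inhibitor, Nfkbia, and for the subunit Rel. RefSeq promoter sequences on GRCm38.p6 were at hand for 7 of the 10 genes, in 9 windows because Nfkb2 has 3 annotated starts. They are Nfkb2, Rela, Rel, Nfkbia, Nfkbib, Nfkbie and Bcl3. Each line below runs 5′ to 3′ on the strand of the gene and ends before the transcription start of RefSeq or of GENCODE M21, whichever lies further upstream. Capitals mark matches to the 10-base kB consensus on either strand. The windows are chr17:45555450-45555699 for Nfkbie (plus strand), chr12:55492648-55492897 for Nfkbia (minus strand), chr11:23770971-23771219 for Rel (minus strand) and chr7:19822771-19823005 for Bcl3 (minus strand).
Nfkbie: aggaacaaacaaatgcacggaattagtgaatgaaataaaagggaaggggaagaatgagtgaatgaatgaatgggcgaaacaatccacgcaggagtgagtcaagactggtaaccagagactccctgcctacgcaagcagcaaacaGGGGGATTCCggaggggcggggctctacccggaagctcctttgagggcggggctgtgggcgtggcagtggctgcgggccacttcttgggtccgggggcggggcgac
Nfkbia: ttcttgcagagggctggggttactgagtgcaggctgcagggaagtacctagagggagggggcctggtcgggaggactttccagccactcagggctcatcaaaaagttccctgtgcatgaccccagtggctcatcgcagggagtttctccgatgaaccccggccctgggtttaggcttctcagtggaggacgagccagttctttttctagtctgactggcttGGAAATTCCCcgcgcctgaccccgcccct
Rel: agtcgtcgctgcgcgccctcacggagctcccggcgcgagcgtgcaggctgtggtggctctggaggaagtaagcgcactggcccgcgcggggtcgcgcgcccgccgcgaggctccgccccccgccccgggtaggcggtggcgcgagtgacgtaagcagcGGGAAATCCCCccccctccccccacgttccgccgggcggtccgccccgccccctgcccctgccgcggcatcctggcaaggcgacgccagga
Bcl3: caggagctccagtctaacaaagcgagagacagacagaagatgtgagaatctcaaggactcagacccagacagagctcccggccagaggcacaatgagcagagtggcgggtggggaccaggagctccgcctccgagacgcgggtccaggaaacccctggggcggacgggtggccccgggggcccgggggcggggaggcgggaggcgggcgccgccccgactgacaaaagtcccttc

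The match in Nfkbie lay 106 to 97 bases before the start, that in Nfkbia 29 to 20 bases before it, and that in Rel, where overlapping matches on both strands merge, 92 to 82 bases before it. Upstream of the first RefSeq start of Nfkb2, the stretches GGGAATTCCCC (chr19:46304698-46304708) and GGGGCTTTCC (chr19:46304726-46304735) matched, and the windows of the other RefSeq starts of Nfkb2 held GGAATGTCCC (chr19:46305459-46305468) and GGGACTTTCC (chr19:46305705-46305714). All of these stretches lie inside the Nfkb2 gene as GENCODE M21 places it (chr19:46304320-46312385). In all, 6 of the 9 windows and 4 of the 7 genes held a match in the 250 bases before a start, against 3.9% of 32851 RefSeq windows of the same length, and the windows of Rela, Nfkbib and Bcl3 held none. The letters TTCNNNGAA of the gamma-activated site bound by STAT proteins occurred in 1 of the 9 windows, that of the first Nfkb2 start, against 7.02% of all windows, and did not overlap a kB match. The core of the interferon-stimulated response element occurred in 0 of the 9 windows, against 2.98% of all. These matches are letters only, and binding was not measured.

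Of the 10 genes, 9 were higher in LLC with BMSCs and 1, Nfkbiz, was lower, by edgeR's quasi-likelihood test with an adjusted p under 0.05. Across all tested genes, 31.5% were called higher and 31.3% lower, so that a call in itself is common in these libraries. A log2 fold change of at least 1 was reached by 7 of the 10, against 8.65% of all tested genes that were higher by that much. The median log2 fold change of the 10 was 1.14, and that of all tested genes was 0.01. FPKM values (fragments for a given length of transcript and library size, a level that can be compared between genes) did not overlap between the groups for any of the 10. All tested genes showed such a separation upwards in 37.0% and downwards in 33.7% of cases. An exact two-sided permutation test over 3 against 3 libraries cannot go below p = 0.1, and that value is reached by each of the 10 genes.

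**Figure D1:**
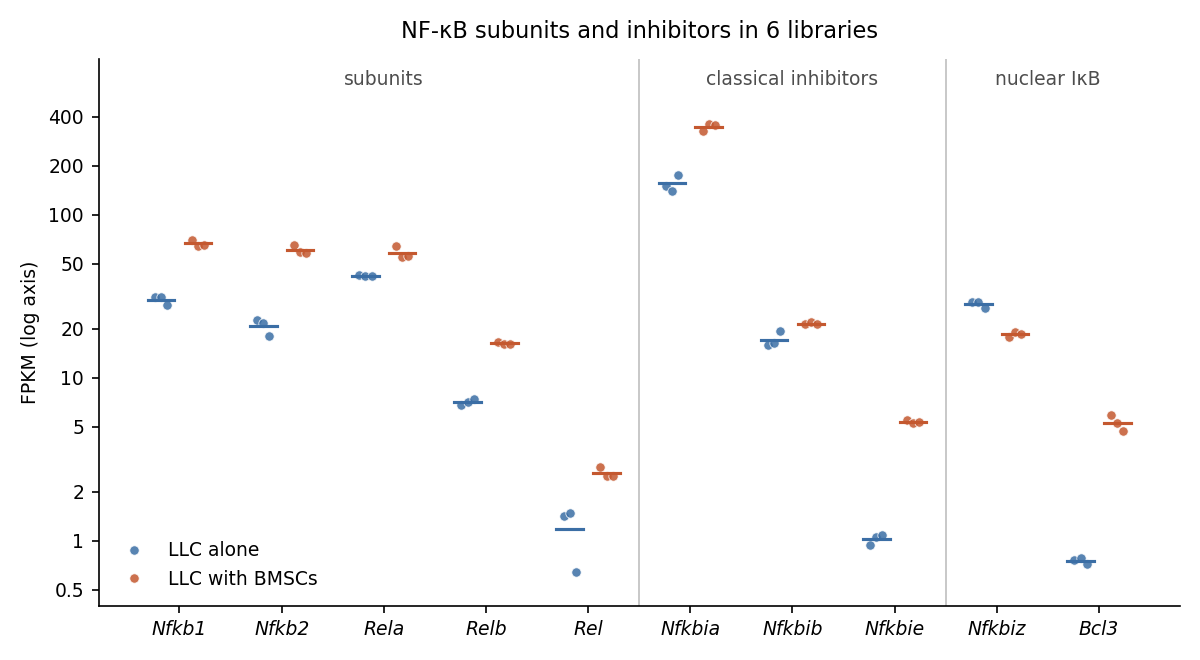
FPKM (log axis) of the 5 subunits, 3 classical inhibitors and 2 nuclear IkB proteins, with a point for each of the 6 libraries and a bar at the mean of 3. The points of LLC with BMSCs lie above those of LLC alone for every gene except Nfkbiz, and the widest spread is that of Rel in LLC alone, from 0.64 to 1.47 FPKM.

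The estimated counts summed to between 33476347 and 46189113 per library. LLC alone replicate 3 stood apart, and short genes ran higher in it. Pairs of libraries that included it differed by 13.4 and 13.9 times the counting expectation at the median gene. For LLC alone replicates 1 and 2 this value was 1.97. Among LLC with BMSCs it was 1.7 for replicates 2 and 3, and 5.07 and 4.97 for the pairs that included replicate 1. Each group thus held a close pair and a library further from it. Whether the libraries of a close pair came from separate mice is not given. Without LLC alone replicate 3 the calls were again 9 higher and 1 lower. 
In bulk RNA of sorted cells, fewer cells of a type and less RNA per cell cannot be told apart, and lists of marker genes were summed in CPM (counts scaled to library size) to show which other cells the libraries could hold. Markers of macrophages summed to 24.2 to 29.2 CPM in LLC alone and 36.2 to 38.5 CPM in LLC with BMSCs, and of the 8 of 12 that passed the filter 6 were called higher and 1, Cd68, lower (Cd68 was singled out after its values were seen). Of the 6, Adgre1 had 0 counts in every library of LLC alone and so passed only through LLC with BMSCs, and Itgam, Ptprc and Mrc1 had 0 to 9 counts there. By counts, the macrophage markers with most reads in LLC with BMSCs were Cd14 and Itgam, at 16.1 and 5.34 CPM. Markers of neutrophils summed to 0.479 to 0.780 CPM and 23.0 to 26.1 CPM, with S100a9 and S100a8 at 22.4 and 20.2 FPKM in LLC with BMSCs. Of the 10, 8 passed the filter and were called higher, but 7 of these had 3 counts or fewer in every library of LLC alone and so passed only through LLC with BMSCs, and Ly6g, at 4 counts or fewer, was not tested. Retnlg was not listed in the files. Markers of marrow stroma summed to 271 to 326 CPM and 670 to 702 CPM, with most of the sum from Col3a1, and 8 of the 10 passed the filter and were called higher. Among these, Col1a1, Dcn and Lum had only 2 to 8 counts in the libraries of LLC alone. Dendritic cell markers summed to 10.3 to 11.0 CPM and 13.2 to 13.8 CPM, endothelial markers to 0.719 to 0.877 CPM and 0.995 to 1.08 CPM, and lymphocyte markers to 0.501 to 0.570 CPM and 0.404 to 0.627 CPM, and Cd3d, Ms4a1 and Ncr1 were not listed in the files. Of the carcinoma markers, Krt8 averaged 95.3 ± 5.98 FPKM without BMSCs and 110 ± 2.85 FPKM with them (SD, n = 3 each) and Krt18 averaged 0.0833 and 0.653 FPKM, while Epcam, Cdh1 and Krt19 had group means of at most 0.0400 FPKM. Of the lung epithelial markers, Napsa averaged 1.70 and 1.84 FPKM, and Nkx2-1 and Sftpc stayed close to 0. The part of these cells in the results on NF-kB genes was not tested.

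All 5 subunits were higher in LLC with BMSCs, with log2 fold changes from 0.45 to 1.53 and a median of 1.15. Nfkb2 rose the most and Rela the least. The gene positions given below come from the GENCODE M21 annotation of GRCm38, because the deposited tables hold no coordinates.

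Nfkb2 (chr19:46304320-46312385, plus strand) encodes p100, the precursor of p52 and the central protein of the noncanonical pathway. Its FPKM in LLC alone was 22.53, 21.69 and 18.07, and in LLC with BMSCs 64.87, 59.20 and 58.37. Every library of LLC with BMSCs was more than double any library of LLC alone. The rise was 2.88-fold, with a log2 fold change of 1.53 (SE 0.095) and an adjusted p of 8.96e-06 by edgeR. Of its transcripts, NM_001177369 carried 75.6% of the FPKM in LLC alone and 82.4% in LLC with BMSCs. In GENCODE M21, exons of Nfkb2 share 531 bases with exons of AC114539.1 and 299 with exons of Psd, both on the opposite strand, and the sources used here do not say whether the counting used strand. Psd rose from a mean of 301 to 616 normalized counts, while Nfkb2 rose from 2710 to 7807.

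Relb (chr7:19606217-19629438, minus strand) encodes the usual partner of p52. It stood at 6.78, 7.14 and 7.45 FPKM in LLC alone and at 16.65, 16.15 and 16.11 FPKM in LLC with BMSCs. The libraries of each group lay close together and far from those of the other. The rise was 2.28-fold (log2 fold change 1.19, SE 0.061, edgeR adjusted p = 3.42e-06). Its FPKM was divided mainly between NM_009046 and NM_001290457, and the share of NM_009046 ranged from 44.0% to 77.3% in LLC alone and from 37.7% to 51.4% in LLC with BMSCs, so that the ranges overlapped.

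Nfkb1 (chr3:135584655-135691547, minus strand) encodes p105, the precursor of p50, which pairs with the product of Rela in the classical dimer. Its FPKM was 31.35, 31.19 and 27.74 in LLC alone and 70.18, 64.66 and 65.28 in LLC with BMSCs. The groups were again separated by more than their own ranges. The rise was 2.19-fold, with a log2 fold change of 1.13 (SE 0.071) and an adjusted p of 9.40e-06 by edgeR. Nearly all of it lay on NM_008689, which rose from 28.9 ± 1.62 to 64.0 ± 3.39 FPKM (SD, n = 3 each).

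Rel (chr11:23736847-23770970, minus strand), which encodes c-Rel, a subunit best known from lymphocytes, was the least abundant subunit. Its FPKM was 1.42, 1.47 and 0.64 in LLC alone and 2.84, 2.51 and 2.50 in LLC with BMSCs. The low value of LLC alone belonged to replicate 3, the library that stood apart, in which only 74 counts fell on the gene, against 124 and 165 in the others of that group. The log2 fold change was 1.15 (SE 0.27, edgeR adjusted p = 0.00659), the largest SE among the 10 genes. Without that library it was 0.84 (SE 0.11, adjusted p = 1.62e-04).

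Rela (chr19:5637483-5648130, plus strand) encodes p65, the subunit that carries the activation domain of the classical dimer. Its FPKM was 42.44, 42.24 and 42.14 in LLC alone and 64.32, 54.84 and 55.97 in LLC with BMSCs. LLC alone was nearly constant, and replicate 1 of LLC with BMSCs lay above the other libraries of its group. The rise was 1.36-fold, the smallest among the subunits (log2 fold change 0.45, SE 0.075, edgeR adjusted p = 0.00131).

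**Figure D2:**
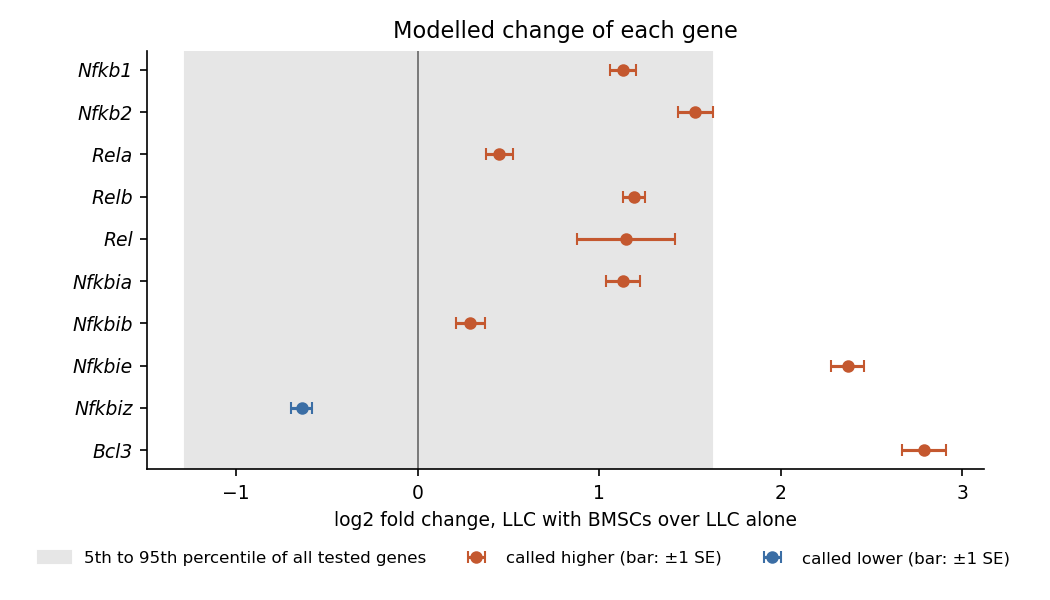
Log2 fold change of each of the 10 genes in LLC with BMSCs over LLC alone by edgeR, with a bar of 1 SE on each side and a grey band from the 5th to the 95th percentile of all tested genes (-1.28 to 1.62). Bcl3 and Nfkbie lie beyond the band, the other 8 lie within it, and Nfkbiz alone lies below 0.

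All 3 classical inhibitors were higher in LLC with BMSCs, by amounts that ranged from 1.22-fold to 5.18-fold.

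Nfkbia (chr12:55489410-55492647, minus strand) encodes IkB alpha, the inhibitor that is known to be made anew after NF-kB enters the nucleus and then to end the response. It was the most abundant of the 10 genes in both groups. Its FPKM was 150.96, 140.41 and 176.32 in LLC alone and 324.02, 358.00 and 353.85 in LLC with BMSCs. The lowest library of LLC with BMSCs lay well above the highest of LLC alone, which was replicate 3. The rise was 2.18-fold (log2 fold change 1.13, SE 0.094, edgeR adjusted p = 3.91e-05). With each library's trend over gene length removed, it was 1.30 on the log2 scale.

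Nfkbie (chr17:45555703-45563169, plus strand) encodes IkB epsilon, an inhibitor of dimers that hold p65 or c-Rel. Its FPKM was 0.94, 1.05 and 1.09 in LLC alone and 5.50, 5.29 and 5.36 in LLC with BMSCs. The values of each group lay close together, and the groups were far apart. It rose 5.18-fold, with a log2 fold change of 2.37 (SE 0.091) and an edgeR adjusted p of 9.06e-07, and 3.35% of all tested genes had a larger log2 fold change. On the log2(FPKM + 1) scale, which understates changes of low genes, its rise was 1.66. NM_008690 carried 76.6% of its FPKM in LLC alone and 80.9% in LLC with BMSCs.

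Nfkbib (chr7:28758251-28767512, minus strand) encodes IkB beta, which is known to be replaced more slowly than IkB alpha. Its FPKM was 15.79, 16.33 and 19.21 in LLC alone and 21.33, 21.90 and 21.22 in LLC with BMSCs. The gap between the groups, from 19.21 to 21.22, was smaller than the range within LLC alone, and the highest library of LLC alone was replicate 3. The log2 fold change was 0.29 (SE 0.081, edgeR adjusted p = 0.0162), the smallest of the 10. With each library's trend over gene length removed, it was 0.50 (edgeR adjusted p = 1.94e-05). The trend used the deposited lengths, by which Nfkbib was the shortest of the 10, and at its length it was 0.24 in LLC alone replicate 3. The call was lost when LLC alone replicate 1, LLC alone replicate 2, LLC with BMSCs replicate 1 or LLC with BMSCs replicate 2 was left out, with adjusted p = 0.0619, 0.0576, 0.0509 and 0.0527 in that order. Its counts were not whole in 5 of 6 libraries, as happens where reads are divided between features, and its exons share 42 bases with Sirt2 and 314 with Ccer2 on the opposite strand.

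Both nuclear IkB genes changed, in opposite directions. Bcl3 (chr7:19808462-19822770, minus strand) encodes a partner of p50 and p52 dimers that can add activating or repressing function to them. Its FPKM was 0.76, 0.78 and 0.72 in LLC alone and 5.90, 5.25 and 4.71 in LLC with BMSCs, which rested on 46 to 62 and on 364 to 464 counts. No other gene of the 10 changed by as much, and its libraries in LLC with BMSCs spread over more than 1 FPKM. The rise was 6.91-fold (log2 fold change 2.79, SE 0.12, edgeR adjusted p = 1.84e-06). On the log2(FPKM + 1) scale it was 1.84. In the annotation its exons share 161 bases with Gm16175 on the opposite strand.

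Nfkbiz (chr16:55811375-55838899, minus strand) encodes IkB zeta, a nuclear cofactor that p50 recruits to a subset of inflammatory genes such as Il6. Its FPKM was 29.28, 29.00 and 26.76 in LLC alone and 17.80, 19.10 and 18.62 in LLC with BMSCs. It was the only one of the 10 with every library of LLC with BMSCs below every library of LLC alone. The log2 fold change was -0.64 (SE 0.06, edgeR adjusted p = 6.70e-05), or 1.56-fold lower. The lower level lay on NM_001159394, which went from 23.7 ± 0.427 to 12.6 ± 1.49 FPKM, while NM_001159395 stood at 4.63 ± 1.71 and 5.91 ± 2.13 FPKM with overlapping libraries (SD, n = 3 each). No test was run on single transcripts, whose reads can be exchanged between them in the estimate.

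The order of the levels changed between the groups. In LLC alone the mean FPKM was 156 ± 18.5 for Nfkbia, 42.3 ± 0.153 for Rela, 30.1 ± 2.04 for Nfkb1, 28.3 ± 1.38 for Nfkbiz, 20.8 ± 2.37 for Nfkb2, 17.1 ± 1.84 for Nfkbib and 7.12 ± 0.335 for Relb (SD, n = 3). Rel, Nfkbie and Bcl3 followed at 1.18 ± 0.465, 1.03 ± 0.0777 and 0.753 ± 0.0306 FPKM. The libraries of Nfkb1 and Nfkbiz overlapped, as did those of Nfkb2 and Nfkbib and those of Rel and Nfkbie. In LLC with BMSCs the order was Nfkbia (345 ± 18.5), Nfkb1 (66.7 ± 3.02), Nfkb2 (60.8 ± 3.54), Rela (58.4 ± 5.18), Nfkbib (21.5 ± 0.365), Nfkbiz (18.5 ± 0.657), Relb (16.3 ± 0.301), Nfkbie (5.38 ± 0.107), Bcl3 (5.29 ± 0.596) and Rel (2.62 ± 0.193). The libraries of Nfkb1 and Nfkb2 overlapped there, as did those of Nfkb2 and Rela and those of Nfkbie and Bcl3. Rela was thus the leading subunit in LLC alone. In LLC with BMSCs, Nfkb1 lay above both Rela and Nfkb2 within every library. Its lead over Nfkb2 was small, with Nfkb2 at 0.894 to 0.924 times Nfkb1, and their ranges overlapped across libraries.

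The make-up of each class followed from these levels. The FPKM of the 5 subunits summed to 105, 104 and 96.0 in LLC alone and to 219, 197 and 198 in LLC with BMSCs. The share of Rela in that sum was 40.6% to 43.9% in LLC alone and 27.8% to 29.4% in LLC with BMSCs, and that of Nfkb2 was 18.8% to 21.6% and 29.4% to 30.0%. Neither share overlapped between the groups. The ratio of Nfkb2 to Rela was 0.491 ± 0.0546 in LLC alone and 1.04 ± 0.0355 in LLC with BMSCs (SD, n = 3 each).

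The 3 classical inhibitors summed to 168, 158 and 197 FPKM in LLC alone and to 351, 385 and 380 FPKM in LLC with BMSCs. Inhibitors over subunits came to 1.60, 1.52 and 2.05 in LLC alone and 1.60, 1.95 and 1.92 in LLC with BMSCs. These ratios of summed levels overlapped, and no test was run on them. The highest was that of LLC alone replicate 3, the library that stood apart, but replicate 1 of each group also stood at 1.60. The ratio of Nfkbia to Rela was 3.56, 3.32 and 4.18 in LLC alone and 5.04, 6.53 and 6.32 in LLC with BMSCs. This ratio did not overlap between the groups, was singled out after its values were seen, and was not tested either. Nfkbia made up 89.6 ± 0.528% of the classical inhibitors in LLC alone and 92.8 ± 0.362% in LLC with BMSCs, while the share of Nfkbib was 9.85 ± 0.471% and 5.78 ± 0.264%, and that of Nfkbie 0.593 ± 0.0624% and 1.45 ± 0.103% (SD, n = 3 each).

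The nuclear IkB genes summed to 29.1 ± 1.41 FPKM without BMSCs and to 23.8 ± 0.516 FPKM with them (SD, n = 3 each). Nfkbiz stood at 37.2 to 38.5 times the FPKM of Bcl3 in LLC alone and at 3.02 to 3.95 times in LLC with BMSCs. Bcl3 accordingly made up 2.53% to 2.62% of their sum in LLC alone and 20.2% to 24.9% in LLC with BMSCs.

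**Figure D3:**
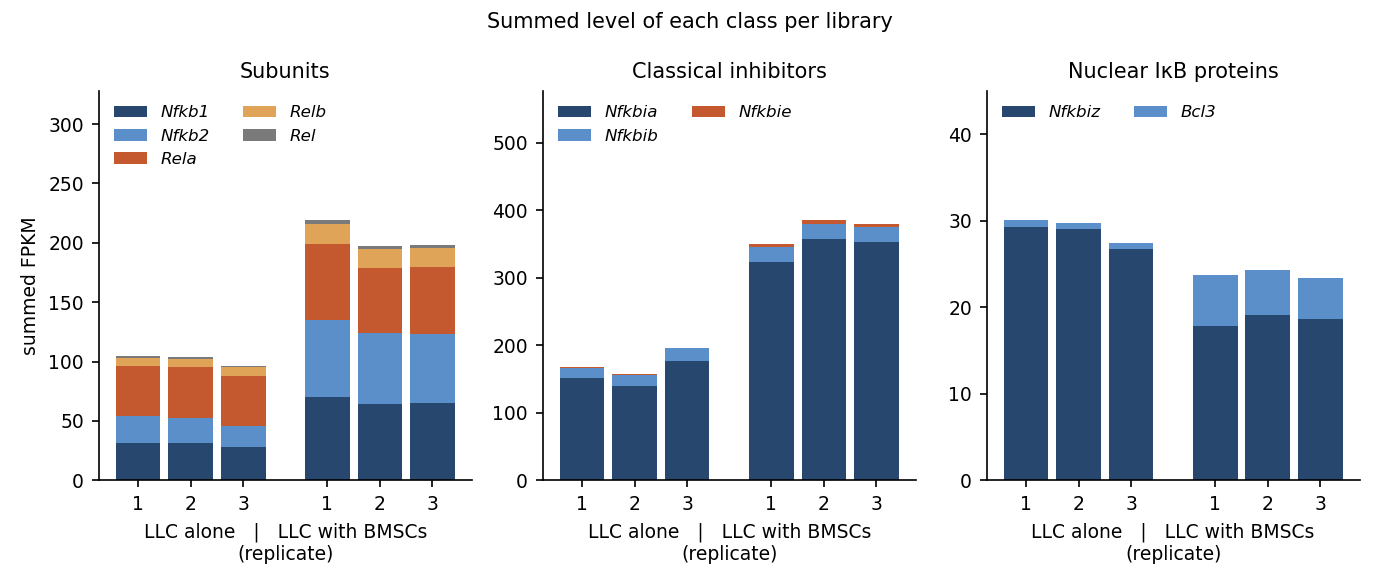
Summed FPKM of the subunits, the classical inhibitors and the nuclear IkB proteins in each of the 6 libraries, stacked by gene. The sums of subunits and of classical inhibitors are higher in every library of LLC with BMSCs, whereas the nuclear IkB sum is lower there, with a larger part from Bcl3.

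The other genes of the pathway moved less uniformly. Of 81 genes on 6 lists, 80 were tested, 46 were higher and 18 lower, and their median log2 fold change was 0.35. The shares over all tested genes were 31.5% higher and 31.3% lower, and each list count below is to be read beside them. Tnfaip3 stands on 2 of these lists.

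Among the 11 receptors, 6 were higher and 3 lower, with a median log2 fold change of 0.34. Il1rap, the accessory chain of the interleukin 1 receptor, rose from 5.63 ± 0.511 to 15.2 ± 0.0814 FPKM (log2 fold change 1.43, edgeR adjusted p = 3.09e-06). The Toll-like receptors Tlr3 and Tlr2 rose by 0.96 and 0.83 on the log2 scale, and Tlr4, the receptor for lipopolysaccharide, fell by 0.81. Among the 13 adaptors, 8 were higher and 2 lower, with a median of 0.57. The named rises were those of the interleukin 1 receptor kinases Irak2 (0.99) and Irak4 (0.83) and of the TNF receptor-associated factors Traf5 (0.85) and Traf3 (0.67), all as log2 fold changes.

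Of the 11 kinases and their partners, 5 were higher and 3 lower, with a median of 0.19. Only 1 was lower without LLC with BMSCs replicate 3, 0 with close replicates summed, and 5 with the trend over gene length removed. Ikbke, which encodes the IKK-related kinase IKK epsilon, rose from 1.21 ± 0.0971 to 9.91 ± 0.413 FPKM (log2 fold change 3.00, SE 0.084, edgeR adjusted p = 2.46e-07), and Map3k8 rose by 0.95. Tab3 and Tab2, which link the kinase TAK1 to ubiquitin chains, went in opposite directions, at 0.36 and -0.31. Of the core kinase genes, singled out after their values were seen, on the log2 scale Ikbkb differed by 0.30 (edgeR adjusted p = 0.00583), Chuk by -0.24 (adjusted p = 0.0115) and Ikbkg by 0.06 (adjusted p = 0.492).

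Of the 8 genes for the linear ubiquitin ligase and its opponents, 6 were higher and 1 lower, with a median of 0.41, and 0 were lower when any single library of LLC with BMSCs was left out. Tnfaip3, which encodes the feedback inhibitor A20, rose from 2.55 ± 0.304 to 9.33 ± 0.596 FPKM (log2 fold change 1.85, edgeR adjusted p = 3.92e-06). Rnf31, the catalytic subunit of the ligase, rose by 1.32, the A20 partner Tnip1 by 1.10 and the deubiquitinase gene Cyld by 0.43 on the log2 scale. Of 7 other IkB-like and nuclear modulators, 1 was higher and 3 lower, with a median of -0.22. Nkrf rose by 0.47, and Pdlim2 fell by 0.67, Akirin2 by 0.31 and Nfkbil1 by 0.25 on that scale.

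Of 32 well known NF-kB targets, 31 were tested, 21 were higher and 6 lower, with a median log2 fold change of 1.85. Of the 21, 3 (Il1b, Il1a and Tnf) had 3 counts or fewer in every library of LLC alone. These 3 passed the filter only through LLC with BMSCs, so they could only be called higher. Il1b and Il1a, the genes of interleukin 1, were at or under 3 counts in every library of LLC alone and at 11.0 ± 0.423 and 5.24 ± 0.236 FPKM in LLC with BMSCs. Against a floor of 3 counts in each library of LLC alone, Il1b was at least 189-fold and Il1a at least 134-fold higher. Mmp9, a gelatinase gene, rose by 5.12 and Birc3, the gene of the apoptosis inhibitor cIAP2, by 4.39 on the log2 scale. The sums of neutrophil and of macrophage markers given above were higher in the same libraries, although Cd68 was lower and Cd14 was not called. The part of such cells in these rises was not tested.

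Targets well above the floor of 3 counts in LLC alone differed in direction, and those named here were singled out after their values were seen. Ccl2 rose from 339 ± 49.5 to 903 ± 48.3 FPKM (log2 fold change 1.39, edgeR adjusted p = 2.66e-05). Sod2 rose from 32.5 ± 2.08 to 121 ± 6.62 FPKM (log2 fold change 1.93, edgeR adjusted p = 1.04e-06). Of all 31 tested targets, 21 were higher and 6 lower, and the following were not called higher. The chemokine gene Cxcl1 stood at 413 ± 50.4 FPKM without BMSCs and at 477 ± 57.2 FPKM with them (edgeR adjusted p = 0.191), and Cxcl2 at 75.6 ± 10.8 and 75.6 ± 1.9 FPKM (adjusted p = 0.855). Ccl20 fell from 47.0 ± 3.35 to 2.79 ± 0.206 FPKM (log2 fold change -4.09, edgeR adjusted p = 1.02e-07). Il6 and Ptgs2 fell by 1.08 and 1.05 on the log2 scale, with adjusted p of 9.11e-05 and 8.93e-06.

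**Figure D4:**
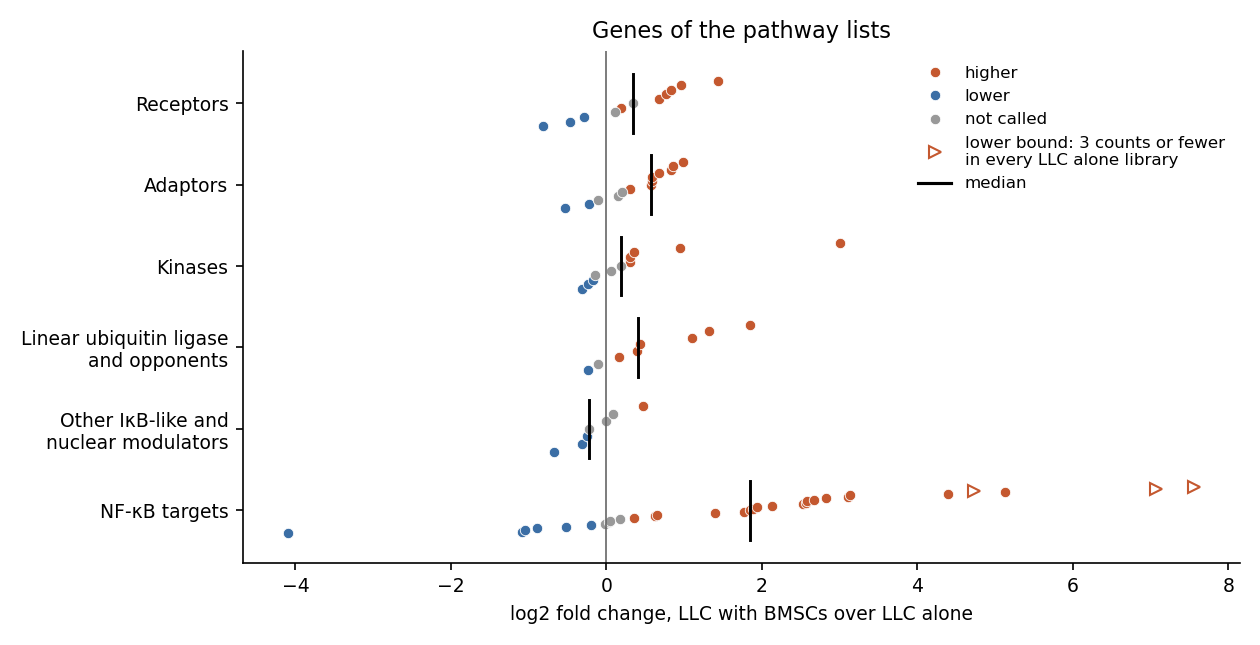
Log2 fold change by edgeR of every tested gene on 6 lists of the NF-kB pathway, coloured by call, with the median of each list as a black bar (0.34, 0.57, 0.19, 0.41, -0.22 and 1.85 from top to bottom). Triangles are lower bounds for the 3 targets that had 3 counts or fewer in every library of LLC alone, and Ccl20 lies far to the left at -4.09.

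For each gene, the tested gene with the most similar profile was sought among 10593 genes, by the Euclidean distance between log2 CPM values over the 6 libraries, each centred on its own mean. With only 2 groups of libraries, a short distance can come from a similar difference between the groups alone. For the subunits these genes were Plekha2 for Nfkb1 (distance 0.0652), Ubash3b for Nfkb2 (0.0536), Ppp2r5b for Rela (0.055), the oxygen-sensing hydroxylase gene Egln1 for Relb (0.0697) and the cadherin gene Fat1 for Rel (0.0415). Fat1 was chosen by this distance, so a spread in LLC alone like that of Rel follows from the choice. Its level was 3.51 ± 1.35 FPKM there and 7.71 ± 0.460 FPKM where BMSCs were present. For the inhibitors they were Schip1 for Nfkbia (0.108), Mpnd for Nfkbib (0.0292), Oas1a for Nfkbie (0.127), Abcd3 for Nfkbiz (0.0539) and Ddx58 for Bcl3 (0.232). Oas1a, a 2-5A synthetase gene, went from 2.82 ± 0.235 to 14.8 ± 0.121 FPKM, and Ddx58, which encodes the RNA sensor RIG-I, from 4.17 ± 0.147 to 27.4 ± 0.382 FPKM (SD, n = 3 each).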

How the data were processed

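RNA of red fluorescent LLC cells was analysed in 6 libraries, 3 for each group, as their titles give it. For every gene and transcript the authors deposited estimated counts, which need not be whole, FPKM values scaled to transcript length and library total, and gene lengths. The submitters' processing notes name mm8, HISAT, StringTie, Cufflinks and GATK without their roles, and whether counting used strand is not given in the sources used here.

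Estimated counts were rounded and fitted over all genes with edgeR 4.0.16 in R 4.3.3 (TMM scaling, filterByExpr, two-sided quasi-likelihood test, Benjamini-Hochberg adjustment, threshold 0.05, no replicate block). Each SE was taken as the size of the log2 fold change over the root of its F statistic. Levels are deposited FPKM, and normalized counts are scaled to a common library size. The biological coefficient of variation was 9.92%. Depth was 33476347 to 46189113 estimated counts, and a floor of 3 counts covers counting error only. The fit was tested on simulated counts. Promoter windows of RefSeq (GRCm38.p6) were searched for motifs on both strands, and positions are from GENCODE M21 (GRCm38).

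The 10 genes, the gene lists and the tests were chosen with earlier results of these data known. From each pathway list, the genes named were up to 4 with the largest absolute log2 fold change among those called and averaging 100 normalized counts or more. From each marker list they were up to 2 of those with most counts. Further markers, and the list genes said to be singled out, were named with their values known. The nearest profile was sought among genes of at least 100 normalized counts. Alternatives were DESeq2 1.42.0, library totals, upper-quartile scaling, other filters, limma 3.58.1 on log2 FPKM, a replicate block, removal of a trend over gene length, summing of close replicates, and leaving out each library. The close replicates summed were 1 and 2 of LLC alone, and 2 and 3 of LLC with BMSCs.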

Additional observations from a re-analysis of the deposited data

How the results depend on the processing

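Across 18 alternatives, the direction and the call were the same for 9 of the 10 genes, with log2 fold changes of 1.03 to 1.17 for Nfkb1, 1.44 to 1.59 for Nfkb2, 0.37 to 0.49 for Rela, 1.09 to 1.26 for Relb, 0.76 to 1.32 for Rel, 1.05 to 1.30 for Nfkbia, 1.66 to 2.43 for Nfkbie, -0.70 to -0.59 for Nfkbiz and 1.84 to 2.92 for Bcl3. The low ends for Nfkbie, Bcl3, Rel and Relb came from the pseudocount of 1 FPKM. With a pseudocount of 0.1 FPKM Rel was at 1.17, and without LLC alone replicate 3 it was at 0.84. The exception was Nfkbib, at 0.23 to 0.50 over the 18, which was 0.50 (adjusted p = 1.94e-05, or 8.78e-05 with the replicate block) with the trend over gene length removed, 0.23 to 0.38 when single libraries were left out and 0.25 (adjusted p = 0.123) with the close replicates of each group summed, where 8 genes were higher. With a log2 fold change of at least 1 added, 7 of the 10 were higher and 0 lower, and of the pathway lists 22 genes were higher and 3 lower by construction. Leaving out each library gave 8 to 9 of the 10 higher and 1 lower, and 43 to 51 list genes higher and 12 to 18 lower. Summing close replicates left 10 list genes lower, from fewer samples. Same-numbered libraries deviated together with correlations of 0.0762, -0.106 and 0.0572, against highest values of -0.00948, 0.134 and 0.151 with other numbers. With 3 libraries in each group, these correlations cannot decide whether same-numbered libraries were handled together. With the replicate block, 9 of the 10 were again higher and 1 lower, 44 list genes were higher and 16 lower, and 4161 genes were higher and 4058 lower in all. No call on the 10 genes changed with the block. The SE of Rel was 0.27 with all libraries and 0.11 without LLC alone replicate 3.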
